A study of Mus musculus with 36 samples.

Results

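The genes described here are 10 mouse genes through which macrophages sense microbial molecules: the Toll-like receptor genes Tlr1, Tlr2, Tlr3, Tlr4, Tlr6, Tlr7, Tlr9 and Tlr13, and Cd14 and Ly96, which encode co-receptors for lipopolysaccharide (LPS). They were taken by gene symbol from the annotation of the FPKM table, and their read counts from the count table, so they are 10 of 53465 annotated genes. All 10 passed the low-count filter that left 16988 genes for testing. LPS raised Cd14 and Tlr2 at every melatonin level, and Tlr7 was lower with LPS at every level, past the test at 4 of 6. Melatonin at 1 mM together with LPS lowered Cd14, Tlr13 and Tlr7 against LPS alone. No difference in Tlr4 passed the test in any of the comparisons below.

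Toll-like receptors are membrane proteins that recognise conserved microbial molecules and signal through adaptor proteins to NF-kB and interferon regulatory factors. TLR1, TLR2, TLR4 and TLR6 act at the cell surface, where TLR2 pairs with TLR1 or TLR6 to bind bacterial lipopeptides. TLR4 binds LPS through its partner MD-2, the product of Ly96, after CD14 has delivered LPS to the complex. TLR3, TLR7, TLR9 and TLR13 sit in endosomes and bind double-stranded RNA, single-stranded RNA, unmethylated CpG DNA and bacterial ribosomal RNA, respectively. Macrophages are known to change the expression of several of these genes once a Toll-like receptor has been triggered.

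The cells were RAW 264.7, a mouse macrophage-like line labelled wild type (WT). There were 36 libraries of total RNA, and each of the 12 groups held 3. One group received solvent and another LPS at 10 µg/mL. The cells of 5 groups received melatonin, a hormone of the pineal gland, alone at 1 mM, 100 µM, 10 µM, 1 µM or 0.1 µM (labelled as powers of 10 in molar units). The remaining 5 groups received the same doses 30 min before LPS, and cells were collected after 12 h. The stated purpose was to study the anti-inflammatory action of melatonin. Nothing in the labels says that the 3 replicates of a group came from different cultures. The p-values therefore refer to library-to-library variation, part or all of which may be technical. All cells came from 1 line, and all RNA is bulk RNA, in which fewer cells of a type and less RNA per cell cannot be told apart.

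Sequence before the annotated start was available from RefSeq (GRCm38.p6) for 6 of the 10 genes, not for Tlr4, Tlr7, Cd14 or Ly96. The stretches of Tlr2, Tlr13 and Tlr1, 3 of the genes that passed a test below, are shown 5′ to 3′ on the gene's strand. They run from the RefSeq window up to the last base before the GENCODE gene start. That of Tlr9, which also passed in 1 comparison, is described but not shown. Capitals mark matches to motifs of NF-kB, a factor activated by LPS, or of PU.1 (GAGGAAG), a factor that defines the myeloid lineage. A match is a description of the letters, not evidence of binding.
Tlr2, chr3:83841768-83841858, minus strand: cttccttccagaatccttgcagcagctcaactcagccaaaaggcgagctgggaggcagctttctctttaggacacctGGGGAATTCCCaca
Tlr13, chrX:106143025-106143203, plus strand: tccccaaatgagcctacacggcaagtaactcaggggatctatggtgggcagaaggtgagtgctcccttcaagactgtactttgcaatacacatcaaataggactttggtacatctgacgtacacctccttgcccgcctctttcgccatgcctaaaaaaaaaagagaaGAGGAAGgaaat
Tlr1, chr5:64933564-64933808, minus strand: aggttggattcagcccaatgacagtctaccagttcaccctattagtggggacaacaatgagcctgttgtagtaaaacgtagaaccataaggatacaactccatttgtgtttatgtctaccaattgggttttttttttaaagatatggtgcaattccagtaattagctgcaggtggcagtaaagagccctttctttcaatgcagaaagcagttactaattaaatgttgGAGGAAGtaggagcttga

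The capitals in Tlr2 hold overlapping NF-kB matches at positions -173 to -163 from the RefSeq start. Both strands of the 250 bases before 32851 RefSeq starts were searched. The NF-kB motif was found in 7.251% of those windows and PU.1 in 10.61%. The interferon-stimulated response element was found in 2.977%, the AP-1 motif TGANTCA in 6.749% and the E-box CACGTG in 6.021%. In the printed stretches of Tlr13 and Tlr1, PU.1 was the motif found. Among the windows not printed, that of Tlr3 held 1 NF-kB match. Its RefSeq start is 700 bases past the GENCODE gene start, so that window lies inside the gene and overlaps exons of Tlr3 and Gm45542. The window of Tlr9, which lies wholly before its gene start, held AP-1 and PU.1 matches. The window of the Tlr6 start nearest its gene start held 0 matches to any of the 5 motifs. Tlr1 and Tlr6 each have a further RefSeq start inside the gene, whose windows held an E-box in Tlr1 and matches to the interferon-stimulated response element in Tlr6.

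In GENCODE M21 on mm10, the build the submitters name, Tlr2 spans chr3:83836272-83841767 (minus strand), Cd14 chr18:36725067-36726798 (minus), Tlr7 chrX:167304929-167330558 (minus) and Tlr13 chrX:106143204-106160493 (plus). Tlr1 (chr5:64924679-64933563) and Tlr6 (chr5:64952031-64960097) lie beside each other on the minus strand and are near-identical in part. Of all 50-base words in Tlr1 transcripts, 13.63% also occur in Tlr6, and 12.26% of those of Tlr6 occur in Tlr1. How reads that fit both were assigned is not given in the sources used here, so the counts of both genes are uncertain to that extent. Tlr3 overlaps the antisense gene Gm45542. Whether counting used strand is not stated, so their reads cannot be told apart.

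Library totals ran from 4203313 to 7590271 counts. At these depths 3 counts, the limit that a count of 0 allows, correspond to 0.388 to 0.599 CPM (counts scaled to the library size with TMM factors). The 8 macrophage markers were all tested, with a summed level of 2720 to 14013 CPM and none at 0. None of the T cell, B cell, neutrophil or epithelial markers passed the filter, and Ly6g and Krt18 were at 0 in every library. Of 4 fibroblast markers 1 passed (summed level 0 to 9.38 CPM), and of 3 endothelial markers 2 passed (0 to 6.78 CPM). Of 4 dendritic cell markers 3 passed, with a summed level of 28.9 to 84.3 CPM in the 18 libraries without LPS and 1.39 to 12.9 CPM in the 18 with LPS.

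A pair of libraries without LPS stood apart from their groups. A score was taken over 270 genes outside the receptor list that differed at least 2-fold between the highest and the lowest melatonin dose given with LPS and did not pass between LPS and solvent. In it, replicates 1 and 2 of 1 mM melatonin alone reached 16.9% and 11.6% of that change, and replicate 3 reached 5.94%. Replicate 1 of 1 µM melatonin alone reached 18.9%, while the 14 other libraries without LPS lay between -2.98% and 7.44%. The macrophage marker sum showed the same division: 4898 and 4783 CPM in replicates 1 and 2 of 1 mM, 11485 CPM in replicate 3, and 4458 CPM in replicate 1 of 1 µM. Replicate 3 of 1 mM thus lay with the lower doses, and replicate 1 of 1 µM with the other 1 mM libraries. Whether the labels of these 2 libraries were exchanged was not tested, and the values of both groups carry that doubt. Leaving both out removes the 1 mM library least like its dose and the 1 µM library most like 1 mM. A melatonin effect without LPS tends to grow by that choice, so such fits are no independent test of it. The labels were kept, and the values without both libraries stand beside the main results that use their groups. With LPS, replicate 3 of 1 mM melatonin also differed from its group. Chi-square per degree of freedom, a measure of how far 2 libraries' counts differ, was 37.7 and 37.1 against replicates 1 and 2. It was 14.4 between those 2. That library had the lowest total (4203313 counts) and a macrophage marker sum of 2720 CPM, against 3772 and 3554 CPM. The calls of Cd14, Tlr13 and Tlr7 at 1 mM against LPS held without it.

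Levels of different genes were compared in FPKM, the authors' values per gene length. In solvent, Cd14 stood highest at 265.9 ± 4.48 FPKM (SD, n = 3), followed by Tlr2 at 58.5 ± 3.30 FPKM. Tlr7 (19.9 ± 3.30 FPKM) and Tlr13 (16.1 ± 2.92 FPKM) overlapped each other and lay above Tlr4 (7.06 ± 0.924 FPKM). Tlr6, Tlr1, Ly96, Tlr9 and Tlr3 had means from 2.31 down to 1.43 FPKM, and each overlapped its neighbour in that order. Thus the endosomal receptors Tlr7 and Tlr13 were listed above Tlr4, the LPS receptor, and Ly96, its partner, stood below all of them. In LPS, Cd14 reached 1432 ± 67.2 FPKM and Tlr2 83.1 ± 9.57 FPKM. Tlr13 (19.99 ± 4.35 FPKM) then stood above Tlr7 (11.0 ± 1.64 FPKM), Tlr1 (9.44 ± 1.90 FPKM) and Tlr4 (8.07 ± 1.94 FPKM), which overlapped in that order. With 1 mM melatonin and LPS, Cd14 was at 405.9 ± 32.5 FPKM, Tlr2 at 99.3 ± 17.2 FPKM and Tlr13 at 6.06 ± 1.34 FPKM, which overlapped Tlr4 and was next above Tlr7 at 5.34 ± 0.729 FPKM.

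**Figure D1:**
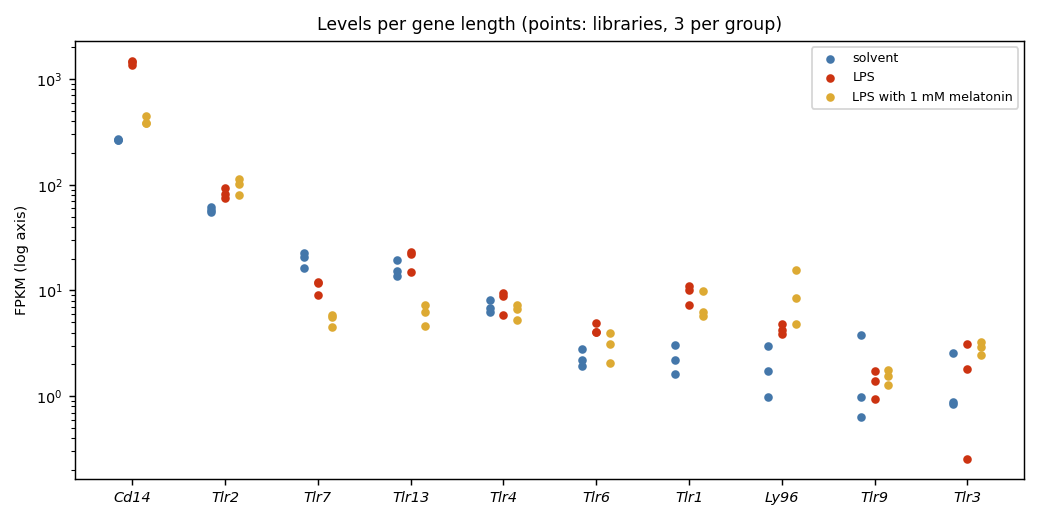
FPKM (log axis) of each gene in the 3 libraries of solvent, LPS and LPS with 1 mM melatonin, ordered by the solvent mean. Cd14 and Tlr2 stand above all other genes in each group, and Tlr7 (19.9 FPKM in solvent) and Tlr13 (16.1 FPKM) are at 5.34 and 6.06 FPKM in LPS with 1 mM melatonin.

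LPS against solvent asks how the receptors respond to the ligand of TLR4 itself. Of the 10 genes, 3 rose (Cd14, Tlr1, Tlr2), 1 fell (Tlr7) and 6 did not pass, where 16.5% of all tested genes passed (edgeR's quasi-likelihood test, Benjamini-Hochberg adjusted p under 0.05, used for all tests here). The groups did not overlap for 6 of the 10, against 31.3% of tested genes. The median log2 difference was 0.43 for the 10 genes and -0.02 for all tested genes.

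Cd14, the LPS carrier, was at 432, 424 and 419 CPM in solvent and at 2415, 2199 and 2327 CPM in LPS. The groups lay far apart, a 5.44-fold rise (log2 difference 2.44 ± 0.19 SE, adjusted p = 9.8e-14). Tlr2, the shared partner of the lipopeptide receptors, was at 170, 191 and 178 CPM in solvent and 253, 230 and 289 CPM in LPS. Every LPS library was above every solvent library, and the rise was 1.44-fold (log2 difference 0.52 ± 0.14, adjusted p = 0.0062). That call was lost without LPS replicate 3 (0.43, adjusted p = 0.065). Tlr1, a partner of TLR2, was at 10.4, 7.54 and 5.54 CPM in solvent and 37.6, 34.6 and 25.1 CPM in LPS, a 4.16-fold rise (2.06 ± 0.38, adjusted p = 7e-05). Tlr6, the other partner, was at 10.5, 7.38 and 8.39 CPM in solvent and 15.5, 18.9 and 15.6 CPM in LPS. These groups did not overlap, but the log2 difference of 0.93 ± 0.51 did not pass (adjusted p = 0.24).

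For the LPS receptor itself no difference was detected. Tlr4 was at 45.5, 35.8 and 38.2 CPM in solvent and 33.4, 51.1 and 53.8 CPM in LPS, and the groups overlapped. Its log2 difference of 0.21 ± 0.29 had a 95% interval from -0.36 to 0.78 (adjusted p = 0.72). Ly96 was at 1.02, 3.14 and 1.80 CPM in solvent and 4.10, 5.09 and 4.47 CPM in LPS. All LPS libraries were higher, at low counts, and the log2 difference of 1.19 ± 0.78 did not pass (adjusted p = 0.34).

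Among the endosomal receptors, Tlr7 fell. It was at 84.9, 95.3 and 67.9 CPM in solvent and 38.2, 50.8 and 49.5 CPM in LPS, and all LPS libraries were lower. The fall was 1.79-fold (log2 difference -0.84 ± 0.27, adjusted p = 0.021). The call was lost without solvent replicate 1 (adjusted p = 0.055), solvent replicate 2 (adjusted p = 0.11) or LPS replicate 1 (adjusted p = 0.12). Tlr3, Tlr9 and Tlr13 overlapped between the groups. Their log2 differences were 0.29 ± 0.61, -0.39 ± 0.82 and 0.33 ± 0.25, with adjusted p of 0.83, 0.83 and 0.42. Of the dendritic cell markers, 1 of the 3 tested fell with LPS alongside Tlr7: Siglech, from 68.6 to 2.05 CPM (-5.03 ± 0.56, adjusted p = 2.4e-09). Zbtb46 and Xcr1 did not pass, and Flt3 was not tested. The part of Siglech-expressing cells in the result was not tested.

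**Figure D2:**
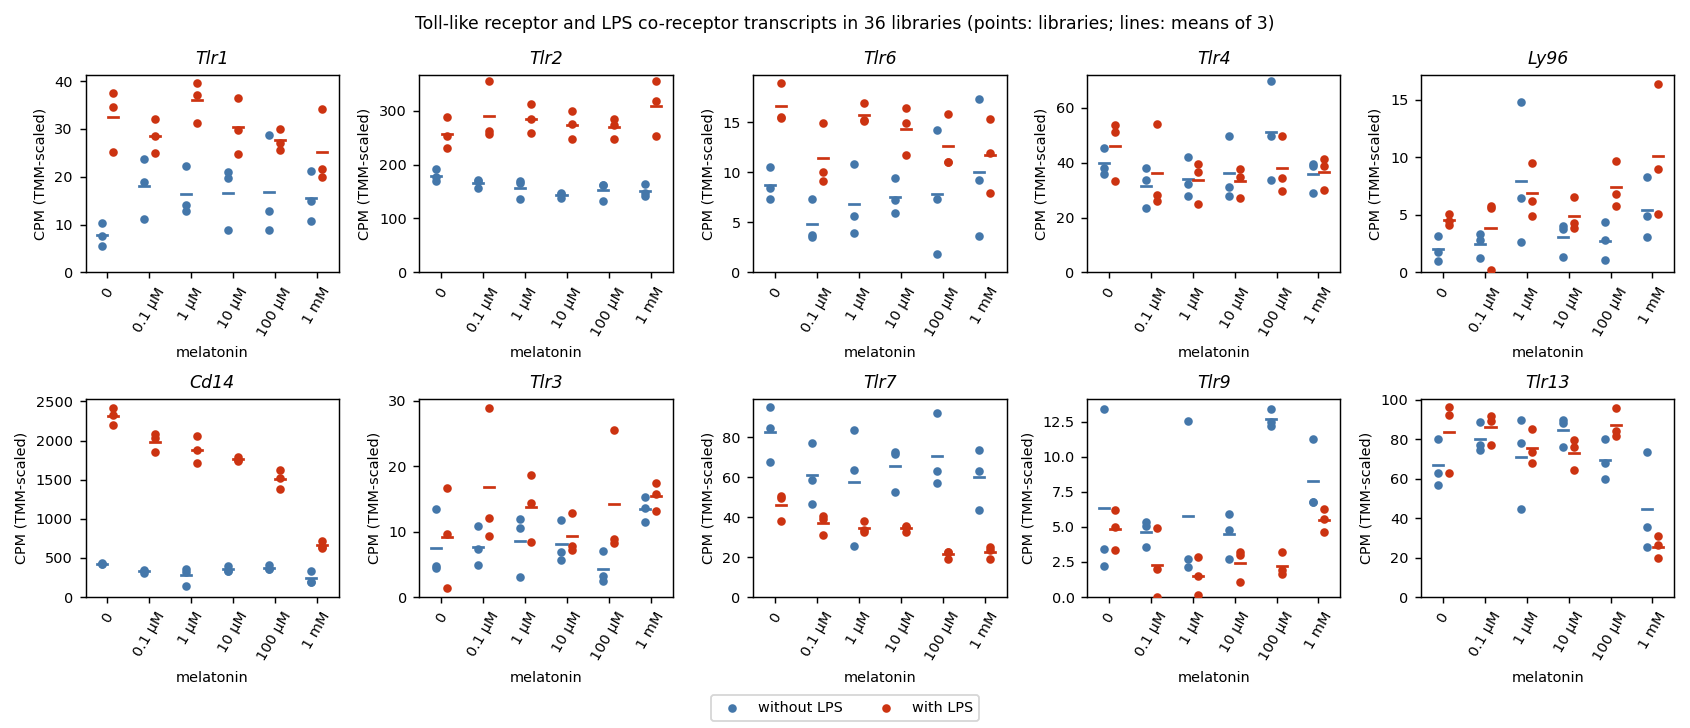
TMM-scaled CPM of each of the 10 genes in all 36 libraries by melatonin dose, without LPS (blue) and with LPS (red); points are libraries and lines the means of 3. Cd14 and Tlr2 are higher with LPS at every dose, and Tlr7 is lower on average at every dose. In the libraries with LPS, Cd14 and Tlr13 drop at 1 mM melatonin.

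The response to LPS could be measured 6 times, once in solvent and once at each melatonin dose against the same dose alone, in comparisons that share no library. Tlr2 and Cd14 rose in 6 of 6. Of all tested genes, 2.71% rose in all 6. At 0.1, 1, 10 and 100 µM and 1 mM, 15.7%, 15.4%, 16.1%, 16.8% and 9.62% of tested genes passed, and 2, 3, 3, 5 and 4 of the 10 genes did.

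Tlr2 had log2 responses of 0.52 without melatonin and 0.81, 0.86, 0.93, 0.82 and 1.04 from 0.1 µM to 1 mM (SE 0.14 each). It was 0.77 at 1 µM and 1.10 at 1 mM without the pair of libraries that stood apart. Its lowest LPS library was at 230 CPM and its highest library without LPS at 191 CPM, so the 18 libraries of each kind did not overlap. Melatonin at no dose moved Tlr2 past the test, with or without LPS. For Cd14 the log2 response was 2.44 without melatonin, then 2.58, 2.75, 2.31, 2.00 and 1.47 in order of rising dose (SE 0.18 to 0.19). It was 2.45 at 1 µM and 1.80 at 1 mM without the pair, and both calls held. Its LPS libraries ran from 626 to 2415 CPM and the others from 147 to 432 CPM.

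Tlr7 was lower with LPS in all 6 comparisons and passed in 4. Its log2 responses were -0.72 ± 0.27 at 0.1 µM (adjusted p = 0.059), -0.73 ± 0.27 at 1 µM (adjusted p = 0.058), -0.93 ± 0.27 at 10 µM (adjusted p = 0.011), -1.72 ± 0.27 at 100 µM (adjusted p = 5.7e-06) and -1.42 ± 0.27 at 1 mM (adjusted p = 0.00024). Of all tested genes, 5.12% were lower in at least 4 of the 6 and higher in none. The groups overlapped only at 1 µM, where replicate 1 of melatonin alone was at 25.8 CPM and the other 2 at 83.7 and 63.5 CPM. Without the pair of libraries that stood apart, the response at 1 µM was -1.08 (adjusted p = 0.001) and that at 0.1 µM passed as well (-0.73, adjusted p = 0.017), while that at 1 mM was -1.24 (adjusted p = 0.00032). The call at 10 µM was lost without replicate 1 of either group (adjusted p = 0.0501 without the melatonin library and 0.0505 without the LPS library).

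Tlr1 was higher with LPS in 6 of 6 comparisons but passed in 2, in solvent and at 1 µM (1.14 ± 0.37, adjusted p = 0.027). The other responses lay between 0.67 and 0.87. Without replicate 2 of 100 µM melatonin alone, the highest of the melatonin libraries without LPS at 28.8 CPM, the response at 100 µM was 1.35 (adjusted p = 0.017) in place of 0.72 (adjusted p = 0.20). The solvent libraries of Tlr1 (5.54 to 10.4 CPM) were low beside those with melatonin alone (8.77 to 28.8 CPM), which are the controls of the responses at the 5 doses. The call at 1 µM was lost without the pair of libraries that stood apart (1.04, adjusted p = 0.10), without replicate 3 of 1 µM alone (0.99, adjusted p = 0.13) and without replicate 1 (1.06, adjusted p = 0.090) or 3 (1.11, adjusted p = 0.072) of LPS with 1 µM. Tlr6 was higher with LPS in 6 of 6 comparisons (0.22 to 1.22) and passed in none.

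Tlr4 was higher with LPS in 3 comparisons and lower in 3 (log2 responses from -0.43 to 0.21), never past the test, and its groups overlapped in all 6. Ly96 was higher in 5 and lower in 1 and passed in none. Tlr6, Tlr4 and Ly96 were thus past the test in 0 of 6, as were 68.1% of tested genes. The libraries of Ly96 ran from 1 to 114 counts, which limits what could be detected for it.

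Tlr3 and Tlr9 each passed in 1 comparison, at 100 µM. Tlr3 was at 2.51, 7.07 and 3.22 CPM with melatonin and at 8.90, 25.5 and 8.34 CPM with LPS and melatonin (1.74 ± 0.62, adjusted p = 0.048). Without replicate 2 of the LPS group, the highest, the log2 response was 1.01 (adjusted p = 0.37), and it did not pass without replicate 1 (1.47, adjusted p = 0.19) or 3 (1.56, adjusted p = 0.17) of melatonin alone either. Tlr9 was at 13.4, 12.2 and 12.5 CPM with 100 µM melatonin and at 1.62, 1.89 and 3.19 CPM with LPS and 100 µM melatonin. The 2 groups lay well apart (-2.49 ± 0.87, adjusted p = 0.040), but the call was lost without any of the 6 libraries (adjusted p from 0.068 to 0.15) and with no low-count filter (adjusted p = 0.0502). Tlr9 was lower with LPS on average in all 6 comparisons, and reached 0 counts in replicate 2 of LPS with 0.1 µM melatonin. Siglech, which shares the direction of Tlr7 and Tlr9, fell with LPS at every dose (log2 responses from -3.20 at 1 mM to -4.82 at 1 µM), while Zbtb46 and Xcr1 passed at none. Its part was not tested.

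**Figure D3:**
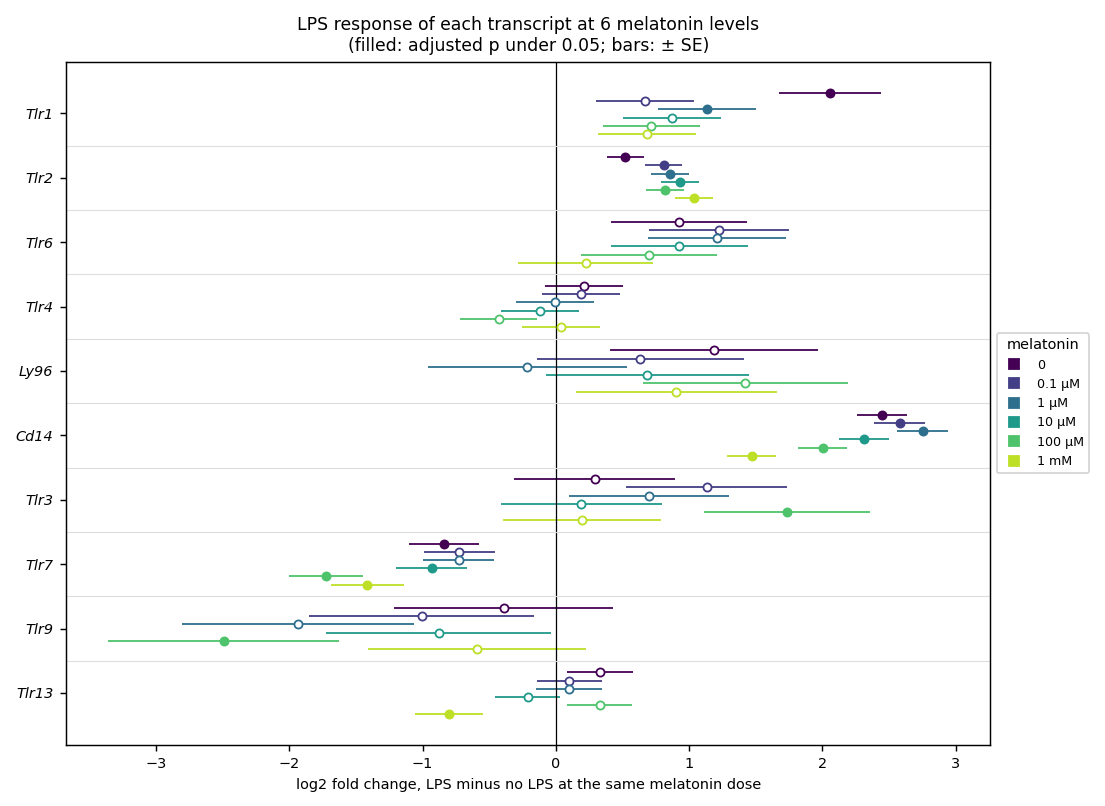
Log2 fold change with LPS (x axis) of each gene at 6 melatonin levels, with SE bars; filled points have an adjusted p under 0.05. Tlr2 and Cd14 are filled and to the right of 0 at all 6 levels, Tlr7 is to the left of 0 at all 6, and Cd14 is smallest at 1 mM, where it is 1.47.

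Melatonin given before LPS was compared with LPS alone at 5 doses. The 5 comparisons share the 3 LPS libraries. At 1 mM, 3 of the 10 genes fell, none rose, and 7 did not pass, where 7.55% of tested genes passed and 4.71% fell. The groups did not overlap for 4 of the 10 (Tlr6 besides those 3), against 21.6% of tested genes. The median log2 difference was -0.35 for the 10 genes and 0.02 for all tested genes.

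Cd14 was at 719, 626 and 634 CPM with LPS and 1 mM melatonin, against 2199 to 2415 CPM with LPS. This was a 3.51-fold fall (-1.81 ± 0.18, adjusted p = 1.4e-09), and the level remained above that of solvent (419 to 432 CPM). Tlr13, the receptor for bacterial ribosomal RNA, was at 63.0, 92.4 and 96.5 CPM with LPS and at 26.2, 30.8 and 19.8 CPM with LPS and 1 mM melatonin. The groups lay well apart, a 3.27-fold fall (-1.71 ± 0.26, adjusted p = 6.5e-06). Tlr7 was at 23.4, 19.0 and 25.1 CPM, below all LPS libraries (38.2 to 50.8 CPM), a 2.05-fold fall (-1.04 ± 0.27, adjusted p = 0.011). The Tlr7 call was lost without replicate 2 of LPS with 1 mM melatonin (-0.93, adjusted p = 0.064).

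The genes for the surface receptors did not pass at 1 mM. Tlr2 was at 356, 319 and 253 CPM, with a log2 difference from LPS of 0.26 ± 0.14 (95% interval -0.01 to 0.54, adjusted p = 0.30). Thus 1 mM melatonin under LPS lowered Cd14, while the interval of Tlr2 reached from -0.01 to 0.54. Its upper end is about the rise of Tlr2 in LPS against solvent (0.52). Tlr1 (-0.37 ± 0.36, adjusted p = 0.65), Tlr6 (-0.51 ± 0.51, adjusted p = 0.66) and Tlr4 (-0.33 ± 0.29, adjusted p = 0.61) had negative differences that did not pass. Ly96 was at 5.06, 16.4 and 8.98 CPM (1.15 ± 0.76, adjusted p = 0.43), and Tlr3 (0.75 ± 0.60) and Tlr9 (0.18 ± 0.82) overlapped the LPS libraries. Of the 8 macrophage markers, 5 fell in the same comparison (Lyz2 by 2.57 on the log2 scale, Adgre1, Itgam, Fcgr1 and Ptprc) and 3 did not pass (Csf1r, Cd68 and Spi1). Their sum, of which Lyz2 and Csf1r make up most, was 10832 to 11037 CPM with LPS and 2720 to 3772 CPM with LPS and 1 mM melatonin. Their part in the fall of Cd14, Tlr13 and Tlr7 was not tested.

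At 100 µM, 1 of the 10 genes passed, where 1.18% of tested genes did. Tlr7 was at 19.2, 22.6 and 22.4 CPM, a 2.15-fold fall from LPS (-1.11 ± 0.27, adjusted p = 0.026). Its libraries there overlapped those at 1 mM, and the difference between these doses was not tested. The call held without LPS replicate 1 and was lost without LPS replicate 2 (adjusted p = 0.10) or 3 (adjusted p = 0.095), or without replicate 1, 2 or 3 of the 100 µM group (adjusted p = 0.16, 0.082 and 0.077). Tlr13, by contrast, was at 96.1, 81.7 and 84.0 CPM, within the range of LPS (0.06 ± 0.25, 95% interval -0.42 to 0.54).

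Cd14 at 100 µM was at 1626, 1523 and 1381 CPM, below all LPS libraries, but did not pass (-0.62 ± 0.18, adjusted p = 0.080). It passed with DESeq2 (-0.63, adjusted p = 0.032), with no low-count filter (adjusted p = 0.00043), with only the 2 groups fitted (adjusted p = 1.3e-05) and without the pair of libraries that stood apart (-0.61 ± 0.10, adjusted p = 4.8e-05). Those libraries are in neither group, and they entered the shared estimate of the spread of Cd14.

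At 10, 1 and 0.1 µM none of the 10 genes passed in edgeR's test, where 0.371%, 0.612% and 1.36% of tested genes did. At an unadjusted p under 0.05 there were 1, 0 and 0, a limit at which the share of all tested genes was not counted. DESeq2 called none of the 10, against 156 of 14227, 282 of 14906 and 459 of 14906 genes with an adjusted p. Any of the 10 that DESeq2 left without an adjusted p counts as not called. Cd14 nevertheless lay below all LPS libraries at each dose, at 1748, 1788 and 1743 CPM at 10 µM, 1718, 2055 and 1878 CPM at 1 µM and 1849, 2038 and 2078 CPM at 0.1 µM. The log2 differences were -0.39, -0.30 and -0.22 (SE 0.18 each, adjusted p = 0.47, 0.52 and 0.64). Groups that do not overlap were common: 16.9%, 17.6% and 18.2% of tested genes were so at these doses. Without the pair of libraries that stood apart, Cd14 passed at 10 µM (-0.39 ± 0.10, adjusted p = 0.031). With only the 2 groups fitted it passed at 10 µM (adjusted p = 0.00029) and at 1 µM (adjusted p = 0.025).

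Over the 5 doses with LPS, Cd14 (-0.35 ± 0.04 log2 units for each 10-fold rise in dose, adjusted p = 3.6e-08), Tlr13 (-0.33 ± 0.06, adjusted p = 7.8e-05) and Tlr7 (-0.21 ± 0.06, adjusted p = 0.024) had slopes past the test, where 7% of tested genes did. The Tlr7 slope was lost without replicate 2 of LPS with 1 mM melatonin (adjusted p = 0.10) or replicate 1 or 3 of LPS with 0.1 µM (adjusted p = 0.064 and 0.077). When 1 mM was left out, 2 of the 10 had an unadjusted p under 0.05 (share of all genes not counted). None passed at the adjusted threshold in edgeR's test, where 0.0177% of tested genes did. The slope of Cd14 was then -0.13 ± 0.06 (adjusted p = 0.74), and that of Tlr13 was 0.00 ± 0.08. Fitted on the groups below 1 mM only, Cd14 passed (-0.13, adjusted p = 0.00078). The ordered means of Cd14 fell from 1988 CPM at 0.1 µM through 1884, 1760 and 1510 CPM to 660 CPM at 1 mM, and the libraries of 1 µM overlapped those of 0.1 µM and of 10 µM.

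**Figure D4:**
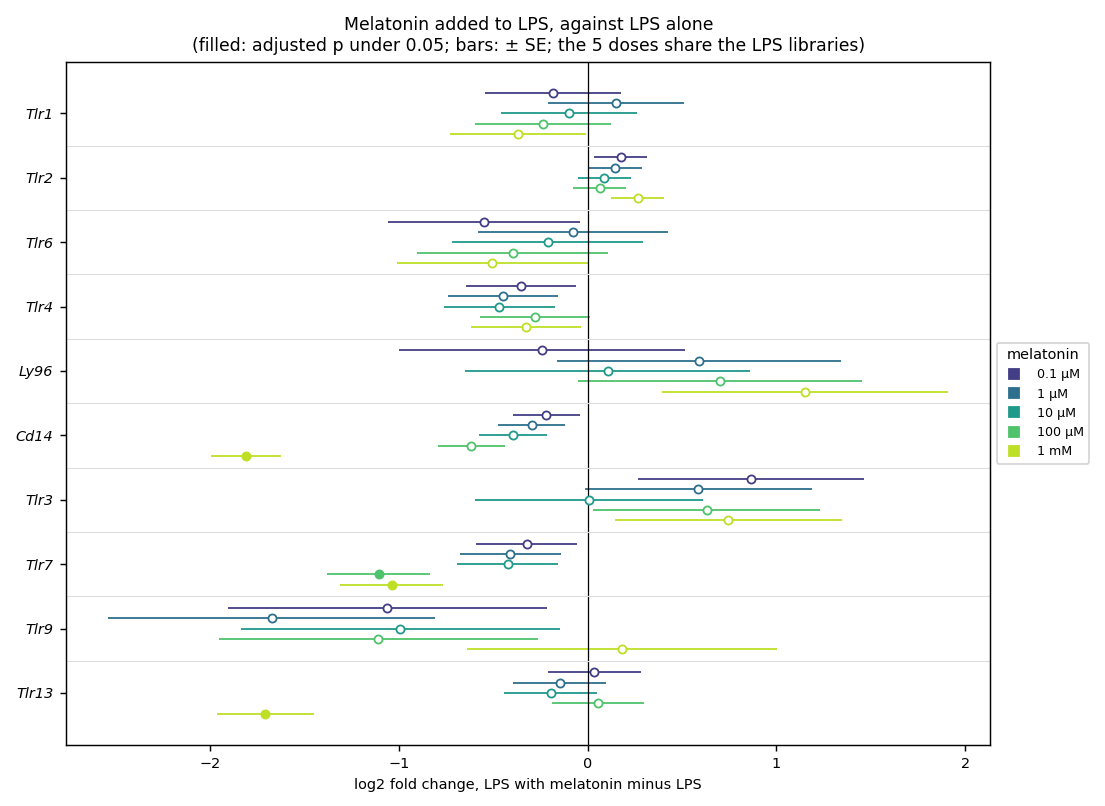
Log2 fold change of LPS with melatonin against LPS alone (x axis) for each gene and dose, with SE bars; filled points have an adjusted p under 0.05, and the 5 doses share the LPS libraries. The filled points are Cd14 and Tlr13 at 1 mM (-1.81 and -1.71) and Tlr7 at 100 µM and 1 mM (-1.11 and -1.04).

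Melatonin without LPS was compared with solvent, and these 5 comparisons share the solvent libraries. At 1 mM, Cd14 fell and the other 9 genes did not pass, where 0.418% of tested genes passed. Cd14 was at 192, 186 and 337 CPM against 419 to 432 CPM in solvent, so replicates 1 and 2 were lowest and replicate 3 lay between them and solvent. The log2 difference was -0.83 ± 0.18 (adjusted p = 0.020). Without the pair of libraries that stood apart it was -1.17 ± 0.11 (adjusted p = 2.9e-10), a fit that drops the highest Cd14 library at 1 mM. The call was lost with only these 2 groups fitted (adjusted p = 0.29), without any 1 of the solvent libraries (adjusted p from 0.059 to 0.068) and without replicate 1 (-0.70, adjusted p = 0.22) or 2 (-0.68, adjusted p = 0.27) of 1 mM melatonin.

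Tlr13 at 1 mM melatonin alone was at 35.7, 25.3 and 73.4 CPM against 57.0 to 80.3 CPM in solvent. Replicates 1 and 2 were below every solvent library and replicate 3 within their range. The log2 difference of -0.58 ± 0.25 did not pass (adjusted p = 0.42). It did without the pair of libraries (-1.13 ± 0.22, adjusted p = 0.00077), a fit that drops the highest Tlr13 library at 1 mM. In replicate 1 of 1 µM, Tlr13 was at 44.7 CPM and Cd14 at 147 CPM, against 78.1 and 89.9 CPM and 326 and 365 CPM in replicates 2 and 3. The response of Tlr13 to LPS at 1 mM rested on replicate 3 of melatonin alone as well: it was -0.80 ± 0.26 (adjusted p = 0.036) with it and -0.25 (adjusted p = 0.64) without it. It was lost as well without replicate 1 or 3 of LPS with 1 mM melatonin (adjusted p = 0.074 and 0.18) and with only the 2 groups fitted (adjusted p = 0.30). The macrophage marker sum was low in the same libraries as Cd14 and Tlr13, and its part was not tested.

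At 100, 10, 1 and 0.1 µM alone none of the 10 genes passed in edgeR's test, where 0.0824%, 0.0824%, 0.147% and 0.341% of tested genes did. At an unadjusted p under 0.05 there were 1, 2, 3 and 1, a limit at which the share of all tested genes was not counted. DESeq2 called none of the 10, against 31 of 16943, 38 of 13548, 83 of 13548 and 214 of 4033 genes with an adjusted p. Any of the 10 that DESeq2 left without an adjusted p counts as not called. At 0.1 µM only 4033 genes had one, so the result there says little for those of the 10 at low counts. Cd14 passed at 1 µM with no low-count filter (-0.60, adjusted p = 0.0021) and at 0.1 µM with only the 2 groups fitted (-0.36, adjusted p = 0.033). Tlr1 had a positive log2 difference from solvent at every dose, from 1.00 ± 0.38 at 1 mM to 1.20 ± 0.38 at 0.1 µM, with adjusted p from 0.21 to 0.61. The 5 differences share the same 3 low solvent libraries. Without LPS, slopes over dose passed for none of the 10 in edgeR's test, where 0.718% of tested genes did. For 1 of them the unadjusted p was under 0.05 (share of all genes not counted). Without the pair of libraries the slopes of Cd14 (-0.15, adjusted p = 4.6e-05) and Tlr13 (-0.31, adjusted p = 2.4e-05) passed. The pair holds the 1 mM library highest in both genes and the 1 µM library lowest in both, so its removal steepens these slopes.

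Whether 1 mM melatonin changed the response to LPS was tested as an interaction, which 1.69% of tested genes passed. Of the 10 genes, Cd14 did: its log2 response was 2.44 without melatonin and 1.47 with 1 mM, a difference of -0.98 ± 0.25 (adjusted p = 0.032). Without the pair of libraries that stood apart the difference was -0.64 ± 0.14 (adjusted p = 0.0062), and it was lost without 1 mM replicate 3 alone (-0.64, adjusted p = 0.19). Leaving out any solvent library, LPS replicate 1 or 3, or replicate 2 of LPS with 1 mM melatonin gave -0.94 to -0.98 (adjusted p from 0.057 to 0.066). For Tlr13 (-1.13 ± 0.35, adjusted p = 0.10), Tlr1 (-1.37 ± 0.52, adjusted p = 0.22) and Tlr7 (-0.58 ± 0.38, adjusted p = 0.57) the difference did not pass. These were -0.57, -1.09 and -0.40 (adjusted p = 0.38, 0.38 and 0.67) without the pair. That of Tlr13 passed without replicate 2 of 1 mM melatonin alone (-1.42, adjusted p = 0.015) and with no low-count filter (-1.13, adjusted p = 0.037).

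Across the 12 group means of log2 CPM, the genes whose pattern was most like that of Cd14, among 8616 protein-coding genes compared, were Bcl2a1d (Pearson r = 0.996), Bcl2a1b (0.995), Mtdh (0.994), Fyb (0.993) and Ifitm3 (0.991). Bcl2a1d and Bcl2a1b are near-identical survival genes of the BCL2 family, so reads may be split between them. The closest to Tlr2 were Sf3b4 (0.987), Zwint (0.979), Ccl5 (0.979), Dhx58 (0.978) and Ppa1 (0.976). Ccl5 encodes a chemokine and Dhx58 a cytosolic RNA sensor. The closest to Tlr13 were Rab11b (0.948), Ccdc50 (0.943), Dock8 (0.926), Set (0.917) and Lcp1 (0.910), with lower correlations. These values describe group means that share libraries and, for Cd14 and Tlr2, are set mainly by the contrast with LPS. Among the 10 genes, the highest correlations were Tlr2 with Cd14 (0.88) and Tlr6 with Cd14 (0.86), and the lowest was Tlr2 with Tlr7 (-0.84).

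Other genes of the pathway were taken from a list of 41 in 9 roles, of which 35 could be tested. With LPS, 11 rose and 5 fell, where 8.4% and 8.09% of all tested genes did. With LPS and 1 mM melatonin against LPS, 8 fell and none rose, where 4.71% and 2.84% did. The list's median log2 difference was 0.21 with LPS and -0.29 with 1 mM added. The counts were 17 and 10 without the pair of libraries that stood apart. Of all 18347 genes tested in that fit 2940 and 1482 passed, against 2802 and 1282 of 16988 in the main fit. Leaving out any 1 LPS library left 5 past the test at 1 mM, as did leaving out replicate 2 of LPS with 1 mM melatonin. In those fits 4.97% to 6.32% of tested genes passed.

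The other 4 Toll-like receptor genes were at or near 0 and were not tested: Tlr5, Tlr8, Tlr11 and Tlr12 had at most 8 counts summed over the 3 libraries in solvent, LPS and LPS with 1 mM melatonin. Lbp, a serum carrier of LPS, had 0 counts in those groups. The TLR4 relative Cd180 and its partner Ly86 were abundant. Ly86 was at 1922 ± 96.3 CPM in solvent (SD, n = 3) and fell with LPS to 1032 ± 48.8 CPM (-0.90 ± 0.20 SE, adjusted p = 0.00098). Cd180 was at 297 ± 18.9 and 337.9 ± 4.95 CPM (0.19 ± 0.13, adjusted p = 0.37). With 1 mM melatonin under LPS both fell, Cd180 to 193 ± 11.7 CPM (-0.80 ± 0.13, adjusted p = 2.4e-05) and Ly86 to 637 ± 274 CPM (-0.69 ± 0.20, adjusted p = 0.025). The Ly86 fall was lost without replicate 3 of that group (-0.38, adjusted p = 0.24), without LPS replicate 1 (adjusted p = 0.069) or 2 (adjusted p = 0.064), and with only the 2 groups fitted (adjusted p = 0.20).

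Aoah, an enzyme that inactivates LPS, was at 1.55 ± 1.72 CPM in solvent and 14.6 ± 3.19 CPM in LPS, and fell to 1.18 ± 0.886 CPM with 1 mM melatonin. The rise (3.23 ± 0.99, adjusted p = 0.018) was lost without solvent replicate 2 or 3 (adjusted p = 0.074 and 0.094). The fall (-3.58 ± 1.01, adjusted p = 0.019) was lost without LPS replicate 3 (adjusted p = 0.055) or without replicate 2 or 3 of the melatonin group (adjusted p = 0.075 and 0.10). Casp4, the cytosolic LPS sensor of mice, was at 24.5 ± 3.04 CPM in solvent and 56.1 ± 16.2 CPM in LPS (1.20 ± 0.44, adjusted p = 0.054).

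Of 4 chaperones and transport proteins that bring the receptors to their place, 1 rose with LPS, 1 fell and 2 did not pass. Hsp90b1, the chaperone gp96, rose from 566 to 1049 CPM (0.89 ± 0.17, adjusted p = 8.1e-05), and its co-chaperone Cnpy3 fell from 87.0 to 49.4 CPM (-0.82 ± 0.22, adjusted p = 0.0064). Unc93b1, which carries the nucleic acid receptors to endosomes, was at 201 and 213 CPM (0.08 ± 0.14, adjusted p = 0.79). None of the 4 passed when 1 mM melatonin was added. All 4 endosomal proteases, which cut the endosomal receptors into their active form, passed with LPS. Ctsl (1.39 ± 0.20, adjusted p = 8.2e-07) and Ctsb (0.59 ± 0.11, adjusted p = 0.00011) rose, and Lgmn (-1.90 ± 0.22, adjusted p = 4.2e-09) and Ctss (-0.56 ± 0.15, adjusted p = 0.0049) fell. With 1 mM melatonin Ctsb (-0.49 ± 0.11, adjusted p = 0.0032) and Ctss (-0.47 ± 0.15, adjusted p = 0.038) fell. Neither passed with only the 2 groups fitted (adjusted p = 0.15 and 0.21), and that of Ctss was lost without any 1 of 5 of the 6 libraries (adjusted p from 0.069 to 0.22), replicate 3 of the melatonin group being the exception.

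Of the 4 adaptors tested, Ticam1 (TRIF), the adaptor of TLR3 and of endosomal TLR4, rose from 12.98 to 52.3 CPM with LPS (2.01 ± 0.40, adjusted p = 0.00019). Myd88, the adaptor shared by most Toll-like receptors, was at 19.9 ± 4.95 CPM in solvent and 30.1 ± 17.1 CPM in LPS (0.60 ± 0.31, adjusted p = 0.20), and Ticam2 was at 23.9 and 14.6 CPM (-0.71 ± 0.39, adjusted p = 0.24). No adaptor passed with 1 mM melatonin. Among 11 kinases and ubiquitin ligases, Ikbke, a kinase of interferon regulatory factors, rose from 10.0 to 94.5 CPM with LPS (3.23 ± 0.46, adjusted p = 4.5e-07), and Irak2 rose from 16.9 to 52.5 CPM (1.64 ± 0.33, adjusted p = 0.00017). Map3k7 (TAK1) fell (-0.62 ± 0.18, adjusted p = 0.013). Tbk1, named after its value was seen because it completes the 4 calls, rose (0.93 ± 0.29, adjusted p = 0.020). The Map3k7 call was lost without solvent replicate 3, LPS replicate 1 or LPS replicate 3 (adjusted p from 0.065 to 0.083) and with no low-count filter (0.074). That of Tbk1 was lost without solvent replicate 1 or 2 or LPS replicate 1 (adjusted p from 0.054 to 0.17) and with only the 2 groups fitted (0.056). With 1 mM melatonin Ikbke fell to 38.7 CPM (-1.29 ± 0.42, adjusted p = 0.047), a call lost with DESeq2 (adjusted p = 0.057) and without any 1 of the 6 libraries (adjusted p from 0.068 to 0.16).

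Among the brakes on Toll-like receptor signalling, Irak3, a kinase-like inhibitor of the receptor complex, rose with LPS from 37.0 ± 7.99 to 200.2 ± 44.1 CPM (2.44 ± 0.21 SE, adjusted p = 2e-12). With LPS and 1 mM melatonin it was at 33.2 ± 4.27 CPM, within the range of solvent (-2.59 ± 0.21 against LPS, adjusted p = 3.3e-12). Its response to LPS at 1 mM was -0.14 ± 0.20 (adjusted p = 0.79). The fall at 100 µM, to 112.6 ± 22.0 CPM, passed as well (-0.83 ± 0.20, adjusted p = 0.018), but not without LPS replicate 1 or 3 or without replicate 1 or 2 of the 100 µM group (adjusted p from 0.071 to 0.18). Tollip rose with LPS (0.95 ± 0.24, adjusted p = 0.0028). Il1rl1, the interleukin 33 receptor, fell with 1 mM melatonin from 61.0 ± 14.5 to 24.1 ± 3.36 CPM (-1.35 ± 0.26, adjusted p = 0.00044). Of the 3 interferon regulatory factors, Irf7 rose with LPS from 3.65 ± 2.58 to 148 ± 23.0 CPM (5.33 ± 0.55, adjusted p = 3.4e-10) and was at 58.8 ± 12.1 CPM with 1 mM melatonin (-1.33 ± 0.44, adjusted p = 0.053). Irf3 (-0.01 ± 0.36) and Irf5 (0.36 ± 0.27) did not pass with LPS.

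**Figure D5:**
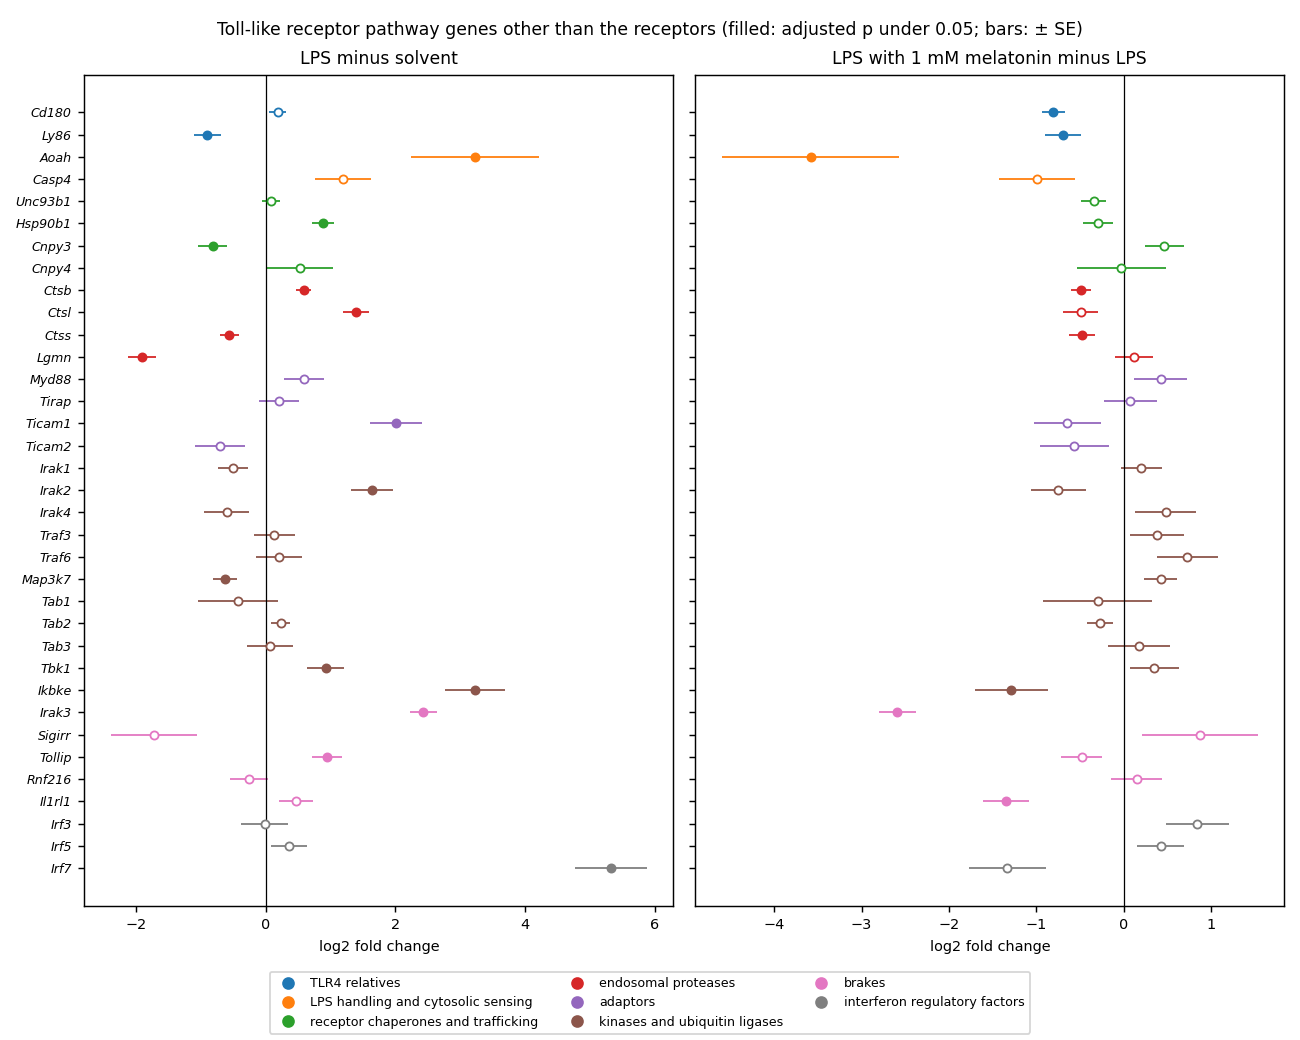
Log2 fold change (x axes, with SE bars) of the 35 tested pathway genes for LPS against solvent (left) and LPS with 1 mM melatonin against LPS (right), coloured by role; filled points have an adjusted p under 0.05. On the left 11 filled points lie to the right of 0 and 5 to the left; on the right all 8 filled points lie to the left of 0, with Irak3 at -2.59.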

How the data were processed

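Raw read counts per gene and FPKM values were used as deposited by the authors. The submitters' processing notes name cutadapt, featureCounts and the mm10 build. Versions, aligner, annotation and strand setting are not given in the sources used here. The deposited FPKM values, normalized by the authors to gene length and library size, served for gene names and for levels between genes. All 36 libraries were fitted together on the counts with edgeR 4.0.16 (limma 3.58.1, R 4.3.3): low-count filter, TMM factors, 1 mean per group, quasi-likelihood test, Benjamini-Hochberg adjustment over 16988 genes, threshold 0.05. Dose slopes and the interaction are contrasts of those means. The steps were run on simulated counts with known changes and a smaller spread between libraries than these data. Error rates at the spread of these data were therefore not measured. Intervals are at 95%; those and the limit of 3 counts per library for a count of 0 cover error in these libraries only. Alternatives were DESeq2 1.42.0, RLE factors, no filter, protein-coding genes only, only the compared groups, a replicate block, leaving out each library, and leaving out replicate 3 of 1 mM and replicate 1 of 1 µM melatonin alone together. Same-numbered libraries did not deviate together (correlations from -0.041 to 0.050), so numbers were not treated as pairs. The 10 genes, the pathway and marker lists and that pair of libraries were chosen with earlier results of these data known. Named pathway genes were, per role, up to 3 with the smallest adjusted p for LPS against solvent and up to 3 for LPS with 1 mM melatonin against LPS. For Cd14, Tlr2 and Tlr13 the 5 most alike protein-coding genes with a mean of at least 5 CPM were named.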

Additional observations from a re-analysis of the deposited data

Results flagged for a closer look

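Among the 10 genes and the 35 tested pathway genes, the response to LPS differed between cells with and without 1 mM melatonin for 2. This was edgeR's test of the difference itself, which 1.69% of all tested genes passed. For Cd14 the difference was -0.977 on the log2 scale (SE 0.255, adjusted p = 0.032), and all LPS libraries stood above their controls both with and without melatonin. Without the pair of melatonin libraries that stood apart it was -0.64 (adjusted p = 0.0062), and without replicate 3 of 1 mM alone -0.64 (adjusted p = 0.19). The call was lost in 8 of 19 alternatives. For Irak3 it was -2.57 (SE 0.289, adjusted p = 8.7e-08), and -2.72 (adjusted p = 8.9e-09) when the pair of melatonin libraries that stood apart was left out. Of the 8 macrophage markers, 2 had an interaction past the test in the same direction, Adgre1 (-2.25, adjusted p = 0.032) and Ptprc (-1.15, adjusted p = 0.00013), and their part was not tested.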

How the results depend on the processing

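Of 30 called log2 differences of the 10 genes under 423 alternatives in all, 371 kept direction and call, 52 kept direction and lost the call, and 0 reversed. The larger moves in the count of the 10 genes past the test were as follows, and the cause was not tested. Smaller moves between counts above 0 are not listed. They include calls lost, given above, and calls gained. With protein-coding genes only, Tlr7 gained a call in the LPS response at 0.1 and 1 µM (adjusted p = 0.041 and 0.038). Percentages give the share of all tested genes past the test in the same fit. For LPS with 100 µM melatonin against LPS it was 1 in the all-library edgeR fit (1.18%). It was 2 with DESeq2 (2.8%), with no low-count filter (0.856%), without the pair of libraries that stood apart (1.92%) and with only the compared groups (4.86%). Leaving out 1 library gave 0 to 1 (0.445% to 0.725% where it was 0). At 10 µM it was 0 (0.371%), and 1 without the pair (0.747%) or with only the compared groups (2.9%). At 1 µM it was 0 (0.612%), and 1 with only the compared groups (3.22%). For 1 mM melatonin alone it was 1 (0.418%), 2 without the pair (2.64%) and 0 with only the compared groups (0%). Without 1 library it was 0 to 2 (0.0542% to 1.88%). For 1 µM alone it was 0 (0.147%), and 1 with no filter (0.247%). For 0.1 µM alone it was 0 (0.341%), and 1 with only the compared groups (2.6%). For the LPS response at 100 µM it was 5 (16.8%), and 3 to 5 without 1 library (12.3% to 12.6% where it was 3). For the interaction it was 1 (1.69%), 2 with no filter (1.01%) and 0 with only the compared groups (0.697%). Without 1 library it was 0 to 2 (1.13% to 1.6% where it moved). The slope below 1 mM had 0 (0.0177%), and 1 with only the compared groups (0.649%). The slope without LPS had 0 (0.718%), 2 without the pair (4.45%), and 0 to 1 without 1 library (1.74% and 2.68% where it was 1). Pathway genes past the test at 1 mM under LPS numbered 8 (7.55%), and 5 to 6 without 1 library (4.97% to 6.32% where it was 5). With a replicate block, the Tlr13 response at 1 mM (-0.76, adjusted p = 0.052) and the Tlr3 response at 100 µM (1.72, adjusted p = 0.055) lost their calls, and no other call of the 10 genes changed. RLE factors ended the Tlr3 call (adjusted p = 0.052). Counts of 0 to 114 per library limit Ly96 and Tlr9.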
